A study of Mus musculus with 2 samples.

Results

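Lymphatic endothelial cells line the vessels that drain fluid and carry leukocytes out of a tissue. In mouse uterus they were chosen here as barcodes, each taken as a cell, with at least 1000 UMIs (unique molecular identifiers, counted transcripts), 500 genes and at most 15% mitochondrial UMIs, in which at least 3 of Prox1, Mmrn1, Ccl21a, Lyve1, Flt4 and Reln had a UMI and their sum was 5 or more, with at most 1 UMI each of Epcam and Ptprc. This gave 170 of 14848 passing barcodes, of 17341 in all. The members were chosen by measured levels of these genes, so those levels are given as a description only. The rule left out barcodes close to it: in DOX 5 barcodes had 3 of the markers but a sum of 3 or 4, and 5 had 2 markers with a sum of at least 5, while 5 members had sums of 5 to 7. In DOX plus AMH these numbers were 0, 4 and 2. All 6 markers were present in 79 of 115 members of DOX and 36 of 55 of DOX plus AMH.

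Uteri of 5 mice per group were pooled into 1 single-cell library each: doxorubicin at 3 mg/kg (DOX), and doxorubicin at 3 mg/kg with anti-Müllerian hormone (AMH) at 0.75 mg/kg (DOX plus AMH), both taken 4 h after treatment. Doxorubicin is an anthracycline that poisons topoisomerase II, and both groups received it. No untreated library and no AMH-only library were analysed here, so a difference between the libraries is that between DOX plus AMH and DOX. The labels give no strain or age for these mice, and the series text gives postnatal day 25 and repeated weekly dosing for its bulk experiment. With 1 library per group there is no replicate check and no test across animals: intervals below are 95% intervals of counting error in these pooled cells.

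Prox1 is the transcription factor that sets lymphatic identity, Flt4 encodes the receptor for the growth factor Vegfc, and Lyve1 binds hyaluronan. Ccl21a is the chemokine that guides dendritic cells and lymphocytes into lymphatic vessels. AMH acts through the type II receptor Amhr2 and SMAD proteins of the bone morphogenetic protein (BMP) branch. Interferons act through STAT factors, which, with IRF9, bind the interferon-stimulated response element in the promoters of their targets.

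In DOX 115 of 7783 passing barcodes were members, with 2167923 UMIs in all, and in DOX plus AMH 55 of 7065 were, with 947897. The members' median was 11678 UMIs in DOX and 6845 in DOX plus AMH, against 13975 and 10221 over all passing barcodes. Totals were 129530270 and 97887259 UMIs over 9258 and 8083 barcodes, of 10000 cells collected per group. The 2 libraries shared 17 barcodes and no member.

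Some member barcodes differed from each other by little more than sampling noise. For each pair of members the squared count difference was divided by its sampling variance and averaged over genes, so that 1 is noise alone. Pairs under 1.3 were linked into groups. In DOX 32 of 115 members fell in such groups, 29 of them in 1 group holding 19.7% of the members' UMIs. Pairs within that group had ratios from 0.96 to 2.22, with a median of 1.23, so not every pair was under 1.3. That group held 6 to 59 UMIs of Ccl21a in each barcode, and also Rgs5, a pericyte gene, in 29 of 29. Acta2, a smooth muscle gene, and the stromal genes Dcn and Col1a1 had UMIs in 29 of 29 too. In DOX plus AMH 8 of 55 members fell in groups. These included 2 barcodes of 121816 and 126254 UMIs that held 26.2% of the members' UMIs and 174 and 187 UMIs of Fabp4. Across the libraries, 1 of 6325 pairs was under 1.3. The deepest barcode of the 29 was alike with 14 other members, with 9 passing DOX barcodes that are not members, and with 0 of 7065 in DOX plus AMH. Blood vascular endothelial barcodes held such groups too, 31 of 116 in DOX and 35 of 223 in DOX plus AMH. Whether alike barcodes share 1 source was not tested, and list medians are given with and without them. Members above 50000 UMIs, called deep here, numbered 8 in DOX and 4 in DOX plus AMH and held 36.9% and 52.8% of the members' UMIs.

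**Figure D1:**
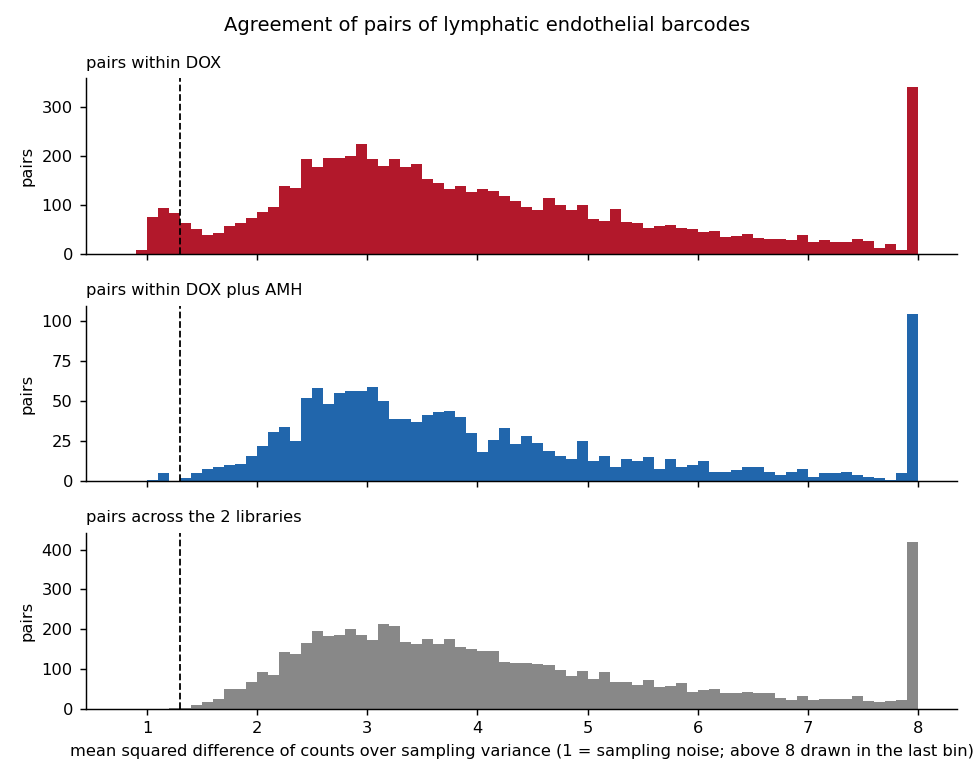
Number of pairs (y axis) by the mean squared difference of their counts over sampling variance (x axis, 1 is sampling noise), for pairs of lymphatic endothelial barcodes within DOX, within DOX plus AMH and across the libraries; the dashed line is 1.3 and values above 8 are in the last bin. DOX pairs form a separate mode near 1 (262 of 6555 pairs under 1.3) that the 6325 pairs across libraries lack (1 under 1.3).

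The 6 rule markers summed to 14045 and 13503 CPM (UMIs of a gene scaled to a common library total, as counts per 1000000 UMIs of the cell set) in members of DOX and DOX plus AMH, against 14.6 and 33.2 CPM in blood vascular endothelial cells and 22.8 and 20.2 CPM in the other passing cells. Blood vascular endothelial cells here are non-members with a UMI of at least 3 of Flt1, Plvap, Emcn, Vwf, Sox17 and Aplnr and a sum of 5 or more. The 12 shared endothelial markers summed to 3085 and 3646 CPM in members and to 115 and 107 in other cells. The 6 lymphocyte markers summed to 0 and 1.05 CPM, and the 6 epithelial markers to 63.2 and 11.6 CPM. The markers that define the label were thus present and those of lymphocytes at or near 0, while the macrophage sum of 121 and 117 CPM was mostly Mrc1. Of the members, 26 in DOX and 6 in DOX plus AMH also met the blood vascular rule, and these held 34.6% and 57.6% of the members' UMIs.

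**Figure D2:**
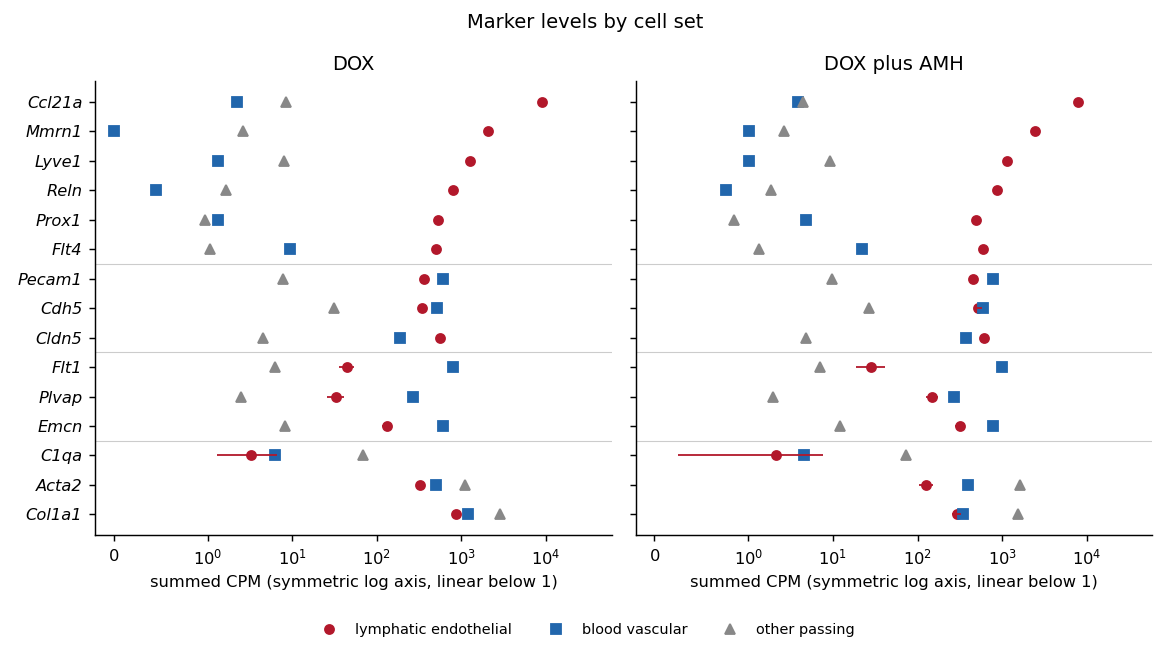
Level in summed UMIs (x axis, CPM, symmetric log axis, linear below 1) of 15 single marker genes in lymphatic endothelial, blood vascular and other passing cells of each library; bars are 95% Poisson intervals for lymphatic endothelial cells. Ccl21a stands at 8940.4 CPM in DOX members and 7968 in DOX plus AMH members.

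The 11 blood vascular markers summed to 350.1 and 594 CPM in members (250.1 and 536 without alike barcodes), against 2663 and 3112 CPM in blood vascular cells and 333 and 243 CPM in other cells. Flt1, a receptor for Vegfa, stood at 44.3 and 28.5 CPM in members against 783.8 and 998.1 CPM in blood vascular cells. In DOX members without alike barcodes Flt1 was at 4.05 CPM, so most of its DOX level sat in the alike barcodes. Rgcc was at 1.38 and 0 CPM against 195.3 and 214.9 CPM, and Aplnr, the apelin receptor, at 4.15 and 2.11 against 170.4 and 155.6. Flt1, Aplnr and others of these markers chose the blood vascular cells, so their levels are a description only. The stromal markers summed to 3243 and 1439 CPM in members against 10927 and 6600 in other cells. Col1a1 was at 862 and 289 CPM and Acta2, smooth muscle actin, at 321 and 127 CPM. Without alike barcodes the stromal sum was 2808 and 1536 CPM and the pericyte sum, 201 and 72.8 CPM in all members, was 55.6 and 90.0. The part of these markers in the results below was not tested.

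Ranked by the smaller of the 2 libraries' ratios of member to other-cell CPM, the leading genes were Ccl21a, Mmrn1, Prox1, Tbx1, Reln and Flt4, followed by Adgrg3, Ackr2, Nts, Meox1, 1810008I18Rik, Klhl4, Myct1, Clca3a1 and Apba2. Tbx1, a transcription factor needed for lymphatic growth, stood at 107.0 and 160.4 CPM against 0.22 and 0.22 in other cells. Nts, neurotensin, stood at 360.2 and 246.9 CPM against 1.37 and 0.44. Ackr2, a receptor that scavenges inflammatory chemokines, was at 33.7 and 24.3 CPM against 0.12 and 0.08. Foxc2, the valve transcription factor, was at 24.5 and 29.5 CPM against 0.24 and 0.28. Since marker levels chose the cells, these values are a description with no test.

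Against blood vascular cells, 547 of 7193 genes were at least 2-fold higher in both libraries (7.6%) and 444 at least 2-fold lower (6.17%), with 601 (8.36%) and 511 (7.1%) without alike barcodes. Sox18, a transcription factor of endothelium, stood at 155.5 and 186.7 CPM in members and 155.8 and 201.2 in blood vascular cells. Mrc1, a gene best known from macrophages, was at 95.02 and 104.4 CPM in members, against 0 and 1.02 in blood vascular cells, while C1qa, which defines macrophages, was at 3.23 and 2.11. Reln, which encodes the secreted protein reelin, stood at 791 and 871 CPM against 0.44 and 0.76. It is a rule marker, so its difference follows in part from how the cells were chosen. Pcsk6, a proprotein convertase, was at 381 and 264 CPM against 0.89 and 1.02, and Slc38a4, an amino acid transporter, at 65.5 and 68.6 CPM against 0.89 and 0.25.

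Among members without alike barcodes, Ccl21a ranged from 0 to 45483 CPM per cell in DOX with a median of 10388, and from 0 to 43655 CPM with a median of 6768 in DOX plus AMH. It was at 0 in 5 of 83 and 12 of 47 cells, while Mmrn1 was at 0 in 3 and 2. After thinning to 2000 UMIs, 88.6% and 73.9% of these cells had a Ccl21a UMI, against 0.959% and 0.653% of other cells. The median cell held 10110 and 6861 UMIs among these members, and 13982 and 10207 among other cells. Under 1000 CPM, a cut set after the values were seen, lay 15 of 83 DOX cells, or 18.1% (exact binomial interval 10.5% to 28.0%), and 17 of 47 DOX plus AMH cells, or 36.2% (22.7% to 51.5%). Their medians were 5775 and 5585 UMIs, and in DOX their stromal marker sum was 6707 CPM against 2273 in the other members.

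**Figure D3:**
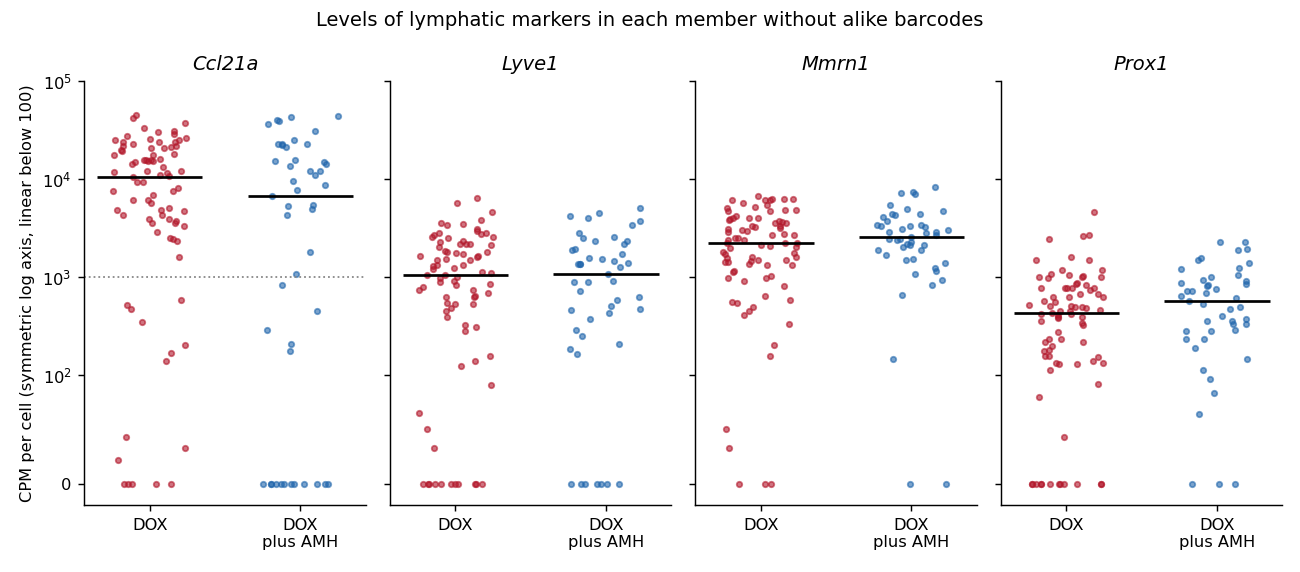
Level of Ccl21a, Lyve1, Mmrn1 and Prox1 (y axis, CPM per cell, symmetric log axis, linear below 100) in each lymphatic endothelial cell without alike barcodes, 83 in DOX and 47 in DOX plus AMH; the bar is the median and the dotted line is 1000 CPM. Ccl21a spans from 0 to 45483 CPM per cell in DOX and to 43655 in DOX plus AMH, with 5 and 12 cells at 0.

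The cells under 1000 CPM of Ccl21a also held less Lyve1, Reln, Flt4, Maf and Pdpn in both libraries. The summed level of Lyve1 was 259 CPM in them against 1601 in the rest in DOX (log2 ratio -2.63, -3.05 to -2.24), and 540.5 against 1707 in DOX plus AMH (-1.66, -2.05 to -1.29). Reln stood at 388 against 961 CPM and 453 against 1247, and Flt4 at 221 against 630 and 314 against 763. Maf, a transcription factor of lymphatic vessels, was at 197 against 454 and 218 against 826 CPM. Pdpn, which encodes podoplanin, was at 33.6 against 74.4 and 34.9 against 105.1 CPM. Gata2, a transcription factor of lymphatic vessels, was higher in them at 52.7 against 23.05 and 131 against 32.6 CPM, and Fn1, fibronectin, at 547 against 433 and 506 against 310. Both were named after their values were seen, and other genes of lymphatic valves did not all go the same way. Itga9, an integrin of valve leaflets, was lower at 125 against 267 CPM in DOX and at 235 against 310 in DOX plus AMH, where the interval spans 0 (-1.04 to 0.19). Gja4, a gap junction gene, was at 28.8 against 64.5 and 34.9 against 45.3 CPM. Foxc2 was at 62.3 against 25.02 CPM in DOX and 26.2 against 29.0 in DOX plus AMH. Prox1 was lower in them in DOX (441 against 611 CPM) and at 663 against 618 CPM in DOX plus AMH, where the interval of the ratio spans 0 (-0.28 to 0.46). Lyve1, Reln, Flt4 and Prox1 are rule markers, so a cell short of Ccl21a had to hold others to be a member. Not all lymphatic genes were lower in these cells. Clca3a1 was at 163 against 143 and 253 against 147 CPM, and Cldn11 at 24.0 against 7.90 and 157 against 14.5. Both intervals span 0 in DOX. In DOX plus AMH Cldn11 rested on 18 against 8 UMIs, and most of the 18 came from a single cell. Nts was at 95.9 against 489 CPM in DOX and 488 against 212 in DOX plus AMH. Kdr, a shared endothelial marker, was at 173 against 364 and 227 against 435 CPM. The 11 blood vascular markers summed to 460 against 221 and 680 against 506 CPM.

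The members' share of passing barcodes was 1.48% in DOX (exact interval 1.22% to 1.77%) and 0.778% in DOX plus AMH (0.587% to 1.01%). With each group of alike barcodes counted once the shares were 1.09% (0.873% to 1.35%) and 0.708% (0.526% to 0.932%), and these intervals overlap. With the rule applied after thinning each barcode to 2000 UMIs, the shares were 1.32% (1.07% to 1.60%) and 0.699% (0.516% to 0.926%). Leaving out alike barcodes as well gave 1.06% (0.844% to 1.32%) and 0.597% (0.429% to 0.809%). Neither of these thinned pairs of intervals overlaps. Blood vascular cells made up 1.49% and 3.16%. Fewer lymphatic cells in the tissue and fewer caught from it cannot be told apart.

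In counting which genes differed, a gene was counted with at least 50 UMIs over both libraries and 20 CPM in the higher one, and called at 2-fold. Of 7551 genes, 139 were at least 2-fold higher in DOX plus AMH (1.84%) and 254 at least 2-fold lower (3.36%). Lower genes were thus 64.6% of those called, but 48.5% (417 higher, 393 lower) when each cell was weighted equally. Without alike barcodes 105 of 6895 were higher (1.52%) and 236 lower (3.42%). For the lists below a 1.3-fold call was used, at which 20% of 10590 genes with at least 20 UMIs were higher and 20.2% lower. The median log2 ratio over those genes was 0.02. Over genes with at least 20 UMIs in the cell set it was 0.02 in blood vascular cells and 0.17 in other cells.

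Type I interferon response genes stood lower in DOX plus AMH than in DOX. Summed over the list they were at 5509 and 2765 CPM in members. Of the 42 measured, 40 were at least 1.3-fold lower, 0 were higher, and the median log2 ratio was -1.42. Without alike barcodes 38 of 41 were lower, with a median of -1.41, against 21.6% of 9776 genes lower and 20.6% higher.

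The 250 bases before the start of 4 of these genes, shown because they are described next, contain the core letters of that element, GAAANNGAAA or its reverse complement TTTCNNTTTC, in capitals. They are from the RefSeq promoter table of build GRCm38.p6, 5′ to 3′ on the gene's strand: Ifit3 at chr19:34583279-34583528 on the plus strand, and on the minus strand Cxcl10 at chr5:92348890-92349139, Rsad2 at chr12:26456453-26456702 and Isg15 at chr4:156200819-156201068. Capitals that run on past 10 letters are overlapping copies.
Ifit3: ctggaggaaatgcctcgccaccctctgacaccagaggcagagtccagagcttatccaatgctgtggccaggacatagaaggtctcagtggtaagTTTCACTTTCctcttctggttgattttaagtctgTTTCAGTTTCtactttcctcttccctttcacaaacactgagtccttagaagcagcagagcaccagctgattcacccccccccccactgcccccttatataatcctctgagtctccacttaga
Cxcl10: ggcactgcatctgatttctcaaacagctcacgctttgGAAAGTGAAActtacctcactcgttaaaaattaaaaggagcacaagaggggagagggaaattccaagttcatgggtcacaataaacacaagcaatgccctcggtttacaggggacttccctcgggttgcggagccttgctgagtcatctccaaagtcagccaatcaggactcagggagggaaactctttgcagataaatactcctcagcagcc
Rsad2: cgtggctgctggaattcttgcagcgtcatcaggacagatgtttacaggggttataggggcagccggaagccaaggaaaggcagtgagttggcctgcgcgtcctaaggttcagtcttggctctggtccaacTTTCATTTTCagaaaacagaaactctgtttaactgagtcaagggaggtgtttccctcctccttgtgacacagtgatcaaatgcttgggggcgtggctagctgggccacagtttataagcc
Isg15: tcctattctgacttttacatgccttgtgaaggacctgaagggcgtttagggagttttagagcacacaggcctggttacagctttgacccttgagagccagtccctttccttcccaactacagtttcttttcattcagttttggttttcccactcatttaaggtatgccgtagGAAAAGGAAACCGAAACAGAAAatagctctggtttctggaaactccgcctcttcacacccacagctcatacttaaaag

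The core was present in the 250 bases before the start of 19 of the 34 list genes that the promoter table matched (55.9%), of 45 in the list. Over all genes of the table it was present in 936 of 27025 (3.46%), and in 274 of 8371 matched genes with at least 20 UMIs in members (3.27%). Antigen presentation genes held it in 3 of 18 (16.7%) and glucocorticoid response genes in 1 of 14 (7.14%). A match is a run of letters and not a bound site.

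Ifit3, an effector that restricts viral RNA translation, stood at 86.7 CPM in DOX and 6.33 CPM in DOX plus AMH, from 188 and 6 UMIs. Its log2 ratio was -3.78 (-5.24 to -2.63), and without alike barcodes it was -4.42. After thinning to 2000 UMIs, 12 of 79 members without alike barcodes had an Ifit3 UMI in DOX (15.2%) and 1 of 46 in DOX plus AMH (2.17%), against 9.54% and 1.97% of other cells.

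Cxcl10, a chemokine that draws T cells and natural killer cells, stood at 125 CPM in DOX and 7.38 in DOX plus AMH (log2 ratio -4.09, -5.41 to -3.02). In DOX 34.9% of its UMIs came from 1 cell. Without alike barcodes Cxcl10 had 256 UMIs in DOX and 1 in DOX plus AMH (-6.63, -11.94 to -4.14), and over 14 alternatives its ratio ran from -6.67 to -3.69. Rsad2, the antiviral protein viperin, stood at 90.4 and 5.27 CPM (-4.10, -5.74 to -2.85). In blood vascular cells its level was 238 and 175 CPM (-0.44, -0.61 to -0.28), and after thinning 28.2% and 25.7% of those cells had a UMI, against 15.2% and 2.17% of members, all without alike barcodes. For Ifit3 the same shares of blood vascular cells were 24.7% and 8.02%, and for Cxcl10 5.88% and 1.60%.

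Isg15, a ubiquitin-like modifier, stood at 474 CPM in DOX and 158 in DOX plus AMH (log2 ratio -1.58, -1.84 to -1.33), and without alike barcodes the ratio was -2.17. Bst2, tetherin, which holds budding virus at the cell surface, stood at 1244 and 717 CPM (-0.79, -0.92 to -0.67), with -1.43 without alike barcodes. After thinning, 75.9% of members without alike barcodes had a Bst2 UMI in DOX and 39.1% in DOX plus AMH, against 55.2% and 28.3% of other cells. Of blood vascular cells without alike barcodes, 72.9% and 56.1% had one. Oas1a, an RNA-sensing synthetase, had 49 UMIs in DOX and 1 in DOX plus AMH (log2 ratio -4.42, -9.75 to -1.88), and Ifit3b had 71 and 3 UMIs (-3.37, -5.68 to -1.77). Ly6e, a membrane protein gene also raised by interferon, stood at 557 and 538 CPM (-0.05, -0.20 to 0.10), an interval that spans 0, and at -0.33 without alike barcodes.

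The same list had a median log2 ratio of -0.64 in blood vascular cells, with 30 of 43 genes lower and 0 higher. In the other cells it was -0.96, with 40 of 44 lower and 0 higher. Of all genes with at least 20 UMIs in the cell set, 1932 of 12169 were lower and 2020 higher in blood vascular cells. In other cells 1655 of 21054 were lower and 6207 higher. All come from the same 2 libraries, and the difference between cell types was not tested. In members without alike and deep barcodes the median was -2.01 over the 41 genes that hold 20 UMIs without alike barcodes, and -2.02 over those that hold 20 UMIs when deep barcodes are left out too.

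**Figure D4:**
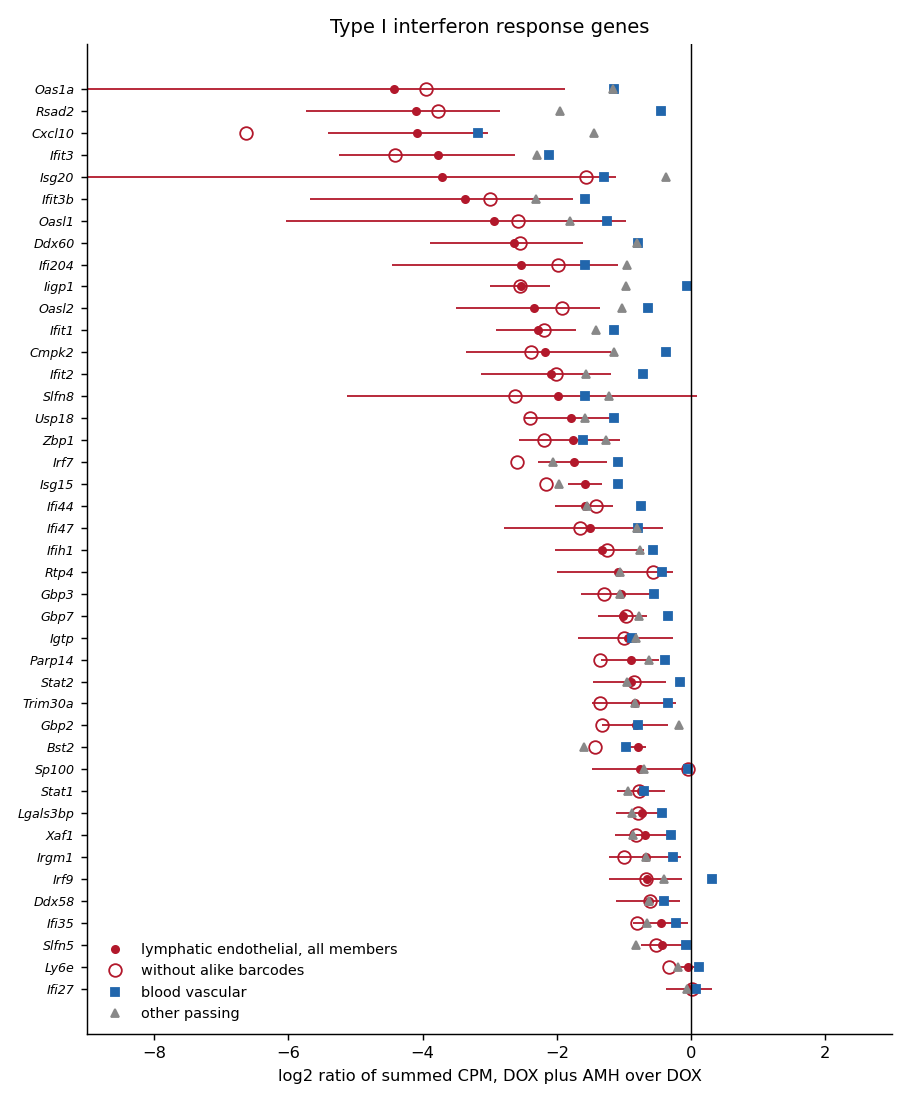
log2 ratio of summed CPM, DOX plus AMH over DOX (x axis), of each type I interferon response gene with at least 20 UMIs (y axis), in all lymphatic endothelial members (filled circles, 95% counting intervals, cut off at the left edge where they run below -9), members without alike barcodes (open circles), blood vascular cells (squares) and other passing cells (triangles). Of the 42 genes, 40 are at least 1.3-fold lower in all members, with Oas1a, Rsad2, Cxcl10 and Ifit3 at -4.42, -4.10, -4.09 and -3.78.

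Genes of antigen presentation, which interferons also raise, were at least 1.3-fold lower in 10 of 22 measured and higher in 0, with a median log2 ratio of -0.32 (without alike barcodes -0.48, 11 of 21 lower). Psmb8, a subunit of the immunoproteasome, stood at 131 and 66.5 CPM (-0.98, -1.40 to -0.59). Nlrc5, the transactivator of class I genes, stood at 29.5 and 14.8 CPM (-0.999, -1.95 to -0.15), and Tap1, the peptide transporter, at 88.6 and 60.1 (-0.56, -1.01 to -0.13). The class I heavy chains H2-D1 and H2-K1 were at 676 and 751 CPM, and 616 and 692 CPM (log2 ratios 0.15 and 0.17), and without alike barcodes -0.12 and -0.29, so their direction turned. In blood vascular cells the list's median was -0.19 and in other cells 0.03.

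Genes of the glucocorticoid response were higher in 7 of 16 measured and lower in 3, with a median of 0.30. Without alike barcodes 9 of 14 were higher and 0 lower, with a median of 0.67. Tsc22d3, a glucocorticoid-induced inhibitor of inflammatory signalling, had 31 UMIs in each library, or 14.3 and 32.7 CPM (log2 ratio 1.19, 0.43 to 1.96). Fkbp5, a chaperone of the receptor, stood at 31.4 and 55.9 CPM (0.83, 0.29 to 1.37). Sult1a1, a sulfotransferase, stood at 26.7 and 115 CPM (2.10, 1.63 to 2.59), and Ddit4 at 25.8 and 48.5 (0.91, 0.31 to 1.498). The list's median was 0.58 in blood vascular cells and 0.71 in other cells.

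Targets of p53, the transcription factor of the DNA damage response, were at least 2-fold higher in members than in the other cells of both libraries in 17 of 32 measured and lower in 0, against 13.2% of 10590 genes higher and 5.77% lower. Without alike barcodes 15 of 32 were higher and 0 lower, against 14.1% and 5.01% of 9776 genes. The 34 genes of the list summed to 4472 and 4711 CPM in members, to 1948 and 1524 CPM in blood vascular cells and to 2170 and 1912 in the other cells. Cdkn1a, the cell cycle inhibitor p21, stood at 630 and 703 CPM in members against 168 and 122 CPM in blood vascular cells. After thinning, 44 of 79 members without alike barcodes had a Cdkn1a UMI in DOX (55.7%) and 22 of 46 in DOX plus AMH (47.8%), against 18.8% and 9.63% of blood vascular cells and 23.9% and 14.6% of other cells. Gdf15, a stress-induced cytokine, stood at 201 and 339 CPM in members against 39.9 and 14.0 CPM in blood vascular cells. Rps27l, a p53 target that is a ribosomal protein paralog, stood at 999.6 and 1137 CPM against 500.2 and 379.9 CPM.

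Between the libraries the p53 list had a median log2 ratio of -0.12, with 7 of 32 genes lower and 6 higher. Without alike barcodes it was -0.40, with 17 of 32 lower and 2 higher. Cdkn1a was at 0.16 (0.02 to 0.29) in all members, at -0.10 without alike barcodes and at -0.85 when barcodes above 50000 UMIs were left out as well, and 44.9% of its UMIs in DOX plus AMH came from 1 cell. Bax, which permeabilises mitochondria, was at 398 and 412 CPM (0.05, -0.12 to 0.23). Plk2, a polo-like kinase, was higher at 86.7 and 157 CPM (0.86, 0.54 to 1.18). In blood vascular cells the list's median was -0.28 and in the other cells -0.36.

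The AMH receptor Amhr2 had 4 UMIs in 115 members of DOX and 0 in DOX plus AMH, where 0 of 947897 UMIs allows up to 3.16 CPM. The DOX level was 1.85 CPM (0.50 to 4.72), and other cells held Amhr2 at 1.58 and 2.46 CPM, within what the counts of members allow in each library. The 19 measured genes of the AMH, BMP and ALK1 list had a median log2 ratio of -0.06, with 4 higher and 5 lower. Without alike barcodes the median was 0.19, with 5 of 15 higher and 4 lower, and over the alternatives tried it was below 0 in 7 of 15 and above 0 in 8, from -0.12 to 0.37. Bmpr2, the type II BMP receptor, stood at 139 and 211 CPM (0.60, 0.34 to 0.87). Id3, a transcriptional target of BMP signalling, stood at 116 and 71.7 CPM (-0.69, -1.10 to -0.30) and at -0.51 without alike barcodes, while its ratio was 0.65 in blood vascular cells and 0.43 in other cells. Smad1 was at 387 and 401 CPM (0.05, -0.13 to 0.23).

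Genes of lymphatic identity beyond the rule had a median of 0.18, with 9 of 25 higher and 4 lower (without alike barcodes 0.25, with 9 of 24 higher and 1 lower). Fxyd6, a regulator of the sodium pump, stood at 219 and 515 CPM (1.24, 1.05 to 1.42). Over 14 alternatives the ratio of Fxyd6 ran from 0.46 to 1.25, and in 6 of them it left that interval. Maf stood at 378 and 581 CPM (0.62, 0.46 to 0.78), and Gata2 at 27.2 and 46.4 (0.77, 0.17 to 1.36). Cldn11, a tight junction gene, had 17 and 33 UMIs (2.15, 1.26 to 3.09), of which 48.5% in DOX plus AMH came from 1 cell. Nr2f2, which acts with Prox1, stood at 481 and 524 CPM (0.12, -0.03 to 0.28). Of the rule markers, the log2 ratio of Flt4 and of Mmrn1 was 0.25 and that of Prox1 -0.09. Those of Ccl21a and Lyve1 were -0.17 and -0.13 and turned to 0.03 and 0.07 without alike barcodes.

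The flow, valve and Notch list had a median of 0.27, with 7 of 17 higher and 2 lower, and of 0.42 without alike barcodes, with 8 of 16 higher and 2 lower. Hes1, a target of Notch signalling, stood at 83.0 and 174 CPM (1.07, 0.75 to 1.38), and Dll4, a Notch ligand, at 34.1 and 55.9 CPM (0.71, 0.17 to 1.24). Their ratios in blood vascular cells were 0.97 and 0.56. Of the growth signalling genes, Tie1 stood at 140 and 204 CPM (0.54, 0.27 to 0.80) and Adm, adrenomedullin, at 77.5 and 142 (0.88, 0.54 to 1.21). Svep1, an extracellular protein needed for lymphatic development, had 51 and 6 UMIs (-1.89, -3.41 to -0.67).

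Among matrix genes, Timp3, an inhibitor of metalloproteases, stood at 616 and 1131 CPM (0.88, 0.76 to 0.99), and Col4a1, of the basement membrane, at 1305 and 810 CPM (-0.69, -0.80 to -0.57). In blood vascular cells the ratios of these genes were 0.59 and -0.45, and in other cells 0.55 and -0.87. Heat shock genes had a median of -0.01, with 4 of 18 higher and 2 lower, and of -0.21 without alike barcodes, with 4 of 18 higher and 5 lower. Hspa1b, an inducible chaperone, stood at 31.8 and 83.3 CPM (1.39, 0.90 to 1.88), and Hsp90ab1 at 1859 and 1536 (-0.28, -0.36 to -0.19).

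Genes of the G2/M phase of dividing cells stood lower in DOX plus AMH, but few members of that library carried them. The G2/M list had a median of -1.20, with 21 of 24 lower and 0 higher, and -0.22 without alike barcodes and barcodes above 50000 UMIs, with 10 of 24 lower and 6 higher. Over the genes that still held 20 UMIs in the cells left, that median was -0.16. Without alike barcodes alone it was -1.52, with 23 of 24 lower. Of all genes, 2251 of 9773 were lower and 2866 higher without alike and deep barcodes. The G2/M median was -0.67 in blood vascular cells, with 18 of 24 lower and 1 higher. In other cells it was -0.92, with 24 of 24 lower. The S phase (DNA replication) list had a median of -0.27 in members, with 7 of 18 lower and 1 higher. Without alike barcodes it was -1.12, with 13 of 17 lower and 0 higher, and without alike and deep barcodes -0.67, with 12 of 17 lower and 1 higher. That list went the other way in blood vascular cells, at 0.46, with 11 of 19 higher and 0 lower. For other cells it was -0.27, with 8 of 20 lower and 0 higher. Top2a, the enzyme that doxorubicin poisons, stood at 154 and 42.2 CPM (-1.86, -2.38 to -1.39), and 65% of its 40 UMIs in DOX plus AMH came from 1 cell. Mki67, a proliferation marker, had a UMI in 27 of 115 and 5 of 55 members before thinning, and in 5.06% and 4.35% of those without alike barcodes after it (other cells 3.097% and 1.37%). The list of DNA repair genes and topoisomerases had a median of -0.32, with 10 of 22 lower and 0 higher, and -0.48 without alike barcodes, with 13 of 22 lower. Without alike and deep barcodes it was -0.13, with 9 of 22 lower and 4 higher. The list's median was 0.08 in blood vascular cells and 0.10 in other cells. Top2b, the form of the enzyme in nondividing cells, stood at 137 and 106 CPM (-0.38, -0.72 to -0.05).

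**Figure D5:**
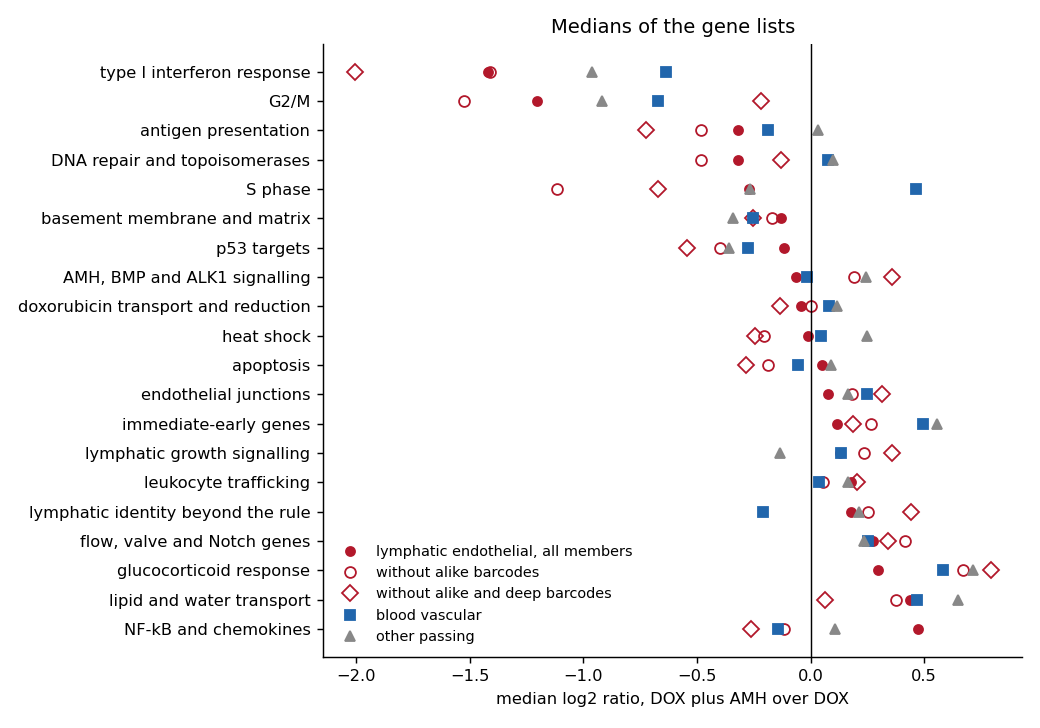
Median log2 ratio, DOX plus AMH over DOX (x axis), of each gene list (y axis) in all lymphatic endothelial members, without alike barcodes, without alike and deep barcodes, in blood vascular cells and in other passing cells; genes hold at least 20 UMIs in the cell set, or, without alike and deep barcodes, in members without alike barcodes. The type I interferon response list is at -1.42 in members, against -0.64 in blood vascular and -0.96 in other cells, and the G2/M list at -1.20 moves to -0.22 without alike and deep barcodes.

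The 12 highest counted ratios outside mitochondrial, ribosomal and haemoglobin genes were those of Fabp4, Ccdc3, Tgfa, Duox2, AA467197, Pde2a, Fibin, Plvap, Cldn11, Serpina3n, Sult1a1 and Tspan7. Several lost most of their UMIs without the alike barcodes. Fabp4, a fatty acid carrier, had 0 UMIs in DOX and 369 in DOX plus AMH, of which 7 remained without alike barcodes. Plvap, a diaphragm gene of fenestrated vessels, had 71 and 142 UMIs, and 63 and 44 without alike barcodes (log2 ratio 0.86, 0.27 to 1.43). Tgfa had 25 and 88 UMIs and 22 and 18 without them.

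Others stood as high or higher without alike barcodes. Serpina3n, an acute-phase serine protease inhibitor, stood at 29.5 and 130 CPM (2.14, 1.69 to 2.60) and at 2.30 without alike barcodes, and its ratio was 1.52 in blood vascular and 1.51 in other cells. Pde2a, a phosphodiesterase of cyclic nucleotides, had 16 and 40 UMIs in 15 and 16 cells (2.52, 1.65 to 3.45), and 3.06 without alike barcodes. Duox2, an NADPH oxidase, had 18 and 50 UMIs (2.67, 1.86 to 3.53), and Fibin 22 and 47 (2.29, 1.53 to 3.09), at 2.68 and 2.96 without alike barcodes. AA467197 had 81.6% of its UMIs in DOX plus AMH from 1 cell.

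The 12 lowest were Ctnna3, Sgcz, Oas1a, Rsad2, Cxcl10, Saa3, Ifit3, Ly6c2, Ifit3b, Notch3, Pla2r1 and Ndst3. Ctnna3 had 91 UMIs in DOX and 1 in DOX plus AMH (-5.31, -10.63 to -2.80), and 34 and 1 without alike barcodes. Notch3, a Notch receptor of pericytes, had 67 and 3 UMIs (-3.29, -5.60 to -1.68). It had a UMI in 20 of the 29 barcodes of the large alike group in DOX. Over 14 alternatives its ratio ran from -3.91 to -2.16. Ly6c2 had 88 UMIs in DOX and 0 in DOX plus AMH, and 1 and 0 without alike barcodes. Ndst3 had 65 and 4 UMIs and 7 and 4 without them. Saa3, an acute-phase protein, had 76 and 2 UMIs, but 90.8% of those in DOX came from 1 cell. Abcb1a, which encodes a pump that exports doxorubicin, had 110 UMIs in DOX, 8 of them outside the alike barcodes, and 26 in DOX plus AMH, so its log2 ratio went from -0.89 to 3.07.

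Leukocyte trafficking genes had a median of 0.18, with 7 of 23 higher and 4 lower, and of 0.05 without alike barcodes, with 5 of 20 higher and 3 lower. Ccl2, a monocyte chemokine, stood at 294 and 614 CPM (1.06, 0.90 to 1.23) and, without alike barcodes, at 367 and 356 CPM, with a log2 ratio of -0.05. Icam1, an adhesion molecule for leukocytes, was at 115 and 171 CPM (0.57, 0.28 to 0.86), and at -0.19 without alike barcodes. For NF-kB targets and chemokines the median was 0.47 over all members (10 of 19 higher, 2 lower) and -0.12 without alike barcodes (5 of 18 higher, 5 lower).

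Endothelial junction genes had a median of 0.08, with 4 of 19 higher and 3 lower, and of 0.18 without alike barcodes, with 5 of 18 higher and 2 lower. Cdh5, which encodes VE-cadherin, stood at 338 and 524 CPM (0.63, 0.47 to 0.80) and at 0.52 without alike barcodes. Cldn5, a claudin of endothelial tight junctions, stood at 564 and 611 CPM (0.11, -0.03 to 0.26). Immediate-early genes had a median of 0.12, with 5 of 21 higher and 3 lower, against 0.50 in blood vascular cells and 0.56 in other cells. Without alike barcodes the members' median was 0.27, with 8 of 20 higher and 3 lower. Fos stood at 81.6 and 130 CPM (0.67, 0.32 to 1.01).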

How the data were processed

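Uterine cells of 2 libraries, 1 per group, were prepared with 10x 3' v3.1 chemistry. The deposited matrices hold UMI counts per gene and barcode, made by the authors with Cell Ranger 7.0.0 on mm10, per the submitters' processing notes. Counts were summed over lymphatic endothelial barcodes per library and scaled to CPM over all genes. Rows that share a symbol were added (38 symbols). The log2 ratio of DOX plus AMH over DOX carries the exact 95% interval of the binomial split of the UMIs, and levels and shares carry exact Poisson and Clopper-Pearson intervals. All cover counting error only. A count of 0 was set against 3 counts. There was no test, since cells are not replicates. Python 3.11.15, numpy 2.4.6, scipy 1.17.1 and pandas 2.3.3 were used, and the ratio script was tested on simulated data. edgeR 4.0.16 gave the TMM scaling alternative.

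Scrublet in scanpy 1.11.5 called 393 of 7783 barcodes doublets in DOX (8 of them members) and 0 of 7065 in DOX plus AMH, where it did not work, so no barcode was removed. Members and gene lists were chosen with earlier results of these data known. The genes named are the 12 highest and lowest ratios, up to 5 by ratio and 3 by UMIs per list, the 25 leading genes over other cells, the 12 furthest above and below blood vascular cells, and the markers. Fn1, Pdpn and other genes of the Ccl21a comparison, and further list members such as Bst2, were chosen after their values were seen. Alternatives changed the cell filter, marker rule, scaling, weighting and count minimum. Leaving out alike or deep barcodes was added after seeing the data. Some genes that the naming rule takes are not reported here.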

Additional observations from a re-analysis of the deposited data

How the results depend on the processing

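The share of members in DOX was 1.09% with 0 UMIs of Epcam and Ptprc, 1.14% without members that meet the blood vascular rule and 1.09% with alike barcodes counted once. Genes at least 2-fold higher numbered 89 with 0 UMIs of Epcam and Ptprc, 417 by the mean of per-cell CPM, 55 with a minimum of 100 UMIs and 323 with 20 UMIs and no CPM minimum. Genes at least 2-fold lower numbered 393 by the mean of per-cell CPM, 155 without alike and deep barcodes, 120 with 100 UMIs and 635 with 20 UMIs. With TMM scaling lower genes were 71.8% of those called. The interferon list's median was below 0 in 15 of 15 alternatives, from -2.02 (alike and deep barcodes out, genes with 20 UMIs in the cells left) to -0.98 (minimum of 100 UMIs), at -1.81 without members meeting the blood vascular rule and -1.95 by the mean of per-cell CPM. The p53 list was at -0.75 without members meeting the blood vascular rule and -0.52 without alike and deep barcodes, which also put antigen presentation at -0.78, glucocorticoid response at 0.88 and lipid and water transport at -0.0070. Lymphatic identity was at 0.59 without deep barcodes. The NF-kB and chemokine list turned to -0.20 with 0 UMIs of Epcam and Ptprc, -0.18 without members meeting the blood vascular rule, -0.015 by the mean of per-cell CPM, -0.12 without alike barcodes and -0.26 without alike and deep ones. Of 98 named genes, 16 whose interval in all members excluded 0 turned direction under some alternative, and the causes were not tested. Genes whose interval spans 0 were left out of this count, though some crossed 0 too, as Bax did (-0.59 to 0.07). With members limited to 0 UMIs of Epcam and Ptprc, H2-D1 was at -0.26, H2-K1 at -0.32, Icam1 at -0.25, Abcb1a at 0.19 and Lyve1 at 0.13. Without members that also meet the blood vascular rule, H2-D1 was at -0.25, H2-K1 at -0.69, Cdkn1a at -1.13, Rps27l at -0.57, Stab1 at -0.038, Ccl21a at 0.19, Ccl2 at -0.030, Icam1 at -0.53, Cav1 at -0.096, Eng at -0.17, Cyb5r3 at -0.34, Tspan7 at -0.64 and Pecam1 at -0.020. With the mean of per-cell CPM, H2-D1 was at -0.014, H2-K1 at -0.18, Cdkn1a at -0.20, Rps27l at -0.31, Cyb5r3 at -0.11 and Lyve1 at 0.24. Without alike barcodes, H2-D1 was at -0.12, H2-K1 at -0.29, Cdkn1a at -0.10, Rps27l at -0.17, Stab1 at -0.062, Ccl21a at 0.026, Ccl2 at -0.046, Icam1 at -0.19, Abcb1a at 3.07, Ndst3 at 0.57 and Lyve1 at 0.066. Without deep barcodes, H2-D1 was at -0.20, H2-K1 at -0.46, Cdkn1a at -0.41, Rps27l at -0.19, Ccl21a at 0.53, Tspan7 at -1.19 and Lyve1 at 0.35. Without alike and deep barcodes, H2-D1 was at -0.40, H2-K1 at -0.73, Cdkn1a at -0.85, Rps27l at -0.52, Stab1 at -0.045, Ccl21a at 0.23, Ccl2 at -0.13, Icam1 at -0.26, Cav1 at -0.078, Eng at -0.16, Abcb1a at 3.16, Cyb5r3 at -0.14, Ndst3 at 0.43 and Lyve1 at 0.055. No paired analysis was possible because each group is 1 library. Few cells and a few deep barcodes limit every value.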
